A study of Mus musculus with 20 samples.

Results

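The loss of Tex15 was examined in fetal male germ cells of mice at embryonic day 18.5 (e18.5). The comparison took 6 of the 20 RNA sequencing libraries of the series: 3 from germ cells heterozygous for Tex15 (Tex15+/-) and 3 from knockout cells (Tex15-/-). All features of the 2 count tables of that age were used, which gave 24495 gene symbols, 1217 repeat names and 52 repeat families. The control cells thus also lacked 1 copy of Tex15, and cells with both copies were not analysed here. All 6 libraries came from total RNA of male cells of a mixed strain background, sorted by green fluorescence. The sources used here do not state which part of Tex15 was deleted, what drove the fluorescent protein, or whether animals were pooled. The series calls its replicates biological triplicates without naming animals, so the p-values reflect differences from library to library, which may be technical. Libraries of the same genotypes from e16.5 (3 per genotype) and postnatal day 2 (d2, 4 per genotype) served for comparison.

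TEX15 is a germ cell protein of the nucleus that is needed for male fertility and for the silencing of retrotransposons in the fetal testis. At this stage male germ cells, then called prospermatogonia, rest from division and lay down new DNA methylation. Small RNAs bound to PIWI proteins (piRNAs) guide that methylation to young retrotransposons, chiefly the L1 elements and the IAP and related endogenous retroviruses. The methylation also reaches the rest of the genome, and promoters rich in CpG dinucleotides mostly escape it while those with few CpG do not.

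Heterozygous libraries held about 26323000 to 31497000 counts and knockout libraries 26939000 to 30348000. Of these, 9967500 to 14203000 per library fell in genes. Levels are CPM values, which scale counts to a common total of counts in genes after TMM adjustment. Repeats use the same base, so a repeat level is relative to genes. Tex15 held 1333, 1309.6 and 1824 CPM in heterozygous and 1.75, 4.54 and 2.79 CPM in knockout libraries (log2 fold change -8.96, SE 0.26, edgeR adjusted p = 7.23e-11). The genotype labels thus matched the level of the targeted gene in all 6 libraries. Of 11 tested germ cell markers 0 passed in edgeR or DESeq2 (0 with an unadjusted p under 0.05, which 11.3% of all genes tested had), and the summed level of the list was 5326 to 6396 CPM in heterozygous and 4955 to 6095 CPM in knockout libraries. Sertoli cell markers (118 to 127 and 110 to 121 CPM), Leydig cell markers (60.9 to 69.2 and 56.9 to 72.0 CPM), endothelial markers (261 to 290.2 and 259 to 306 CPM) and red blood cell markers (20.4 to 22.7 and 18.3 to 20.5 CPM) had no called member. The adult globin genes and the Leydig cell gene Insl3 were listed at 0. Of 15 stroma markers Dcn rose (1.22 to 2.73 and 5.16 to 7.39 CPM) and Pdgfrb fell, with summed levels of 363 to 429 and 407 to 415 CPM. Each of these 2 calls was lost in 5 of the 6 fits without 1 library. In bulk libraries, fewer cells of a type and less RNA per cell cannot be told apart.

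The loss of Tex15 went mainly with increases at this age. Of 18075 genes tested, 373 rose (2.06% of those tested) and 49 fell (0.271%) at an adjusted p under 0.05 in edgeR's quasi-likelihood test with Benjamini-Hochberg adjustment. In each of these 422 genes (2.33%) the 3 knockout libraries did not overlap the 3 heterozygous ones, which held for 16.8% of all genes tested. The increases were large, with a median log2 fold change of 2.05 (quartiles 1.24 and 3.15), and 191 of them were at least 4-fold. The decreases were smaller, with a median of -0.90, and 4 of them were at least 4-fold. The median over all genes tested was -0.01. Counts of called genes dropped by over 1.5 times to 281 without heterozygous replicate 2, to 274 without knockout replicate 2 and to 152 when all ages shared 1 fit.

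The share of genes that rose depended on the heterozygous level. Of 894 genes under 1 CPM in heterozygous cells 14.1% rose, but most of these entered the test through their knockout counts, so that share is a description only. From 1 to 10 CPM 132 of 7419 genes rose and 2 fell. From 10 to 100 CPM 93 of 7481 rose and 37 fell. At 100 CPM or more 22 of 2281 rose and 10 fell, and there the increases were small. The largest of them was Zfp329, a zinc finger gene, at 144, 145 and 183 CPM in heterozygous and 295, 258 and 312 CPM in knockout libraries (log2 fold change 0.87). Cbx5, which encodes the heterochromatin protein HP1 alpha, was among them (0.78). So were the ubiquitin ligase genes Huwe1 (0.45) and Herc1 (0.48) and the chromatin remodelling gene Bptf (0.37), singled out after their values were seen.

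The named genes are taken by where each is best known, an order chosen after their values were seen and not tested for enrichment. Several that rose from 10 CPM or more are known from the ear and the eye. Tmc2, which encodes a subunit of the mechanotransduction channel of inner ear hair cells, held 31.8, 41.4 and 42.02 CPM in heterozygous libraries and 214, 199 and 153 CPM in knockout libraries, 4.91-fold more (log2 fold change 2.30, SE 0.16, edgeR adjusted p = 8.39e-08). Gpr179, a receptor gene of retinal bipolar cells, held 14.2, 14.8 and 15.1 CPM against 65.9, 72.5 and 70.6 CPM (log2 fold change 2.24, SE 0.17, edgeR adjusted p = 2.60e-07). Impg2, which encodes a proteoglycan of the matrix around photoreceptors, held 26.1, 22.7 and 23.9 CPM against 71.2, 75.9 and 97.2 CPM (log2 fold change 1.75, SE 0.17, edgeR adjusted p = 3.26e-06). In all 3 genes the lowest knockout library lay at over 2 times the highest heterozygous one. Rpe65, the retinoid isomerase gene of the pigment epithelium, lay at 0, 0.243 and 0.975 CPM and rose to 5.495, 16.8 and 3.52 CPM. Its adjusted p was 0.00907 in edgeR and rose to 0.054 without heterozygous replicate 2, which ended the call. Without knockout replicate 2 its log2 fold change was 3.54 in place of 4.49.

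Other genes that rose from such levels encode membrane and motor proteins. Chl1, a neural cell adhesion gene, held 41.1, 47.6 and 79.7 CPM in heterozygous and 231, 191 and 183 CPM in knockout libraries (log2 fold change 1.85, SE 0.20, edgeR adjusted p = 2.79e-05). Slc8a1, the sodium-calcium exchanger gene, held 45.8, 53.2 and 54.9 CPM against 148, 162 and 138 CPM (log2 fold change 1.54, SE 0.14, edgeR adjusted p = 1.59e-06). Prom1, which encodes the membrane protein CD133, held 17.3, 18.99 and 13.9 CPM against 53.1, 89.4 and 69.1 CPM (log2 fold change 2.07, SE 0.21, edgeR adjusted p = 3.50e-06). The groups lay apart in all 3, although heterozygous replicate 3 stood above the rest of its group for Chl1. Dnah11, a dynein heavy chain gene of motile cilia, held 32.2, 38.3 and 41.2 CPM against 86.4, 93.7 and 100.4 CPM (log2 fold change 1.33, SE 0.16, edgeR adjusted p = 3.10e-05). Pitpnc1, a phosphatidylinositol transfer protein gene, held 9.19, 11.7 and 15.1 CPM against 79.5, 56.4 and 54.6 CPM (log2 fold change 2.41, SE 0.22, edgeR adjusted p = 1.57e-06).

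Further genes are best known from the liver, kidney and gut. Akr1c14 and Akr1c21, aldo-keto reductase genes of 1 cluster whose enzymes act on steroids, both rose. Akr1c14 held 8.63, 6.33 and 8.87 CPM in heterozygous libraries and 49.3, 36.9 and 39.8 CPM in knockout libraries (log2 fold change 2.40, SE 0.22, edgeR adjusted p = 1.59e-06). Akr1c21 held 10.9, 11.8 and 14.04 CPM against 57.3, 40.8 and 59.2 CPM (log2 fold change 2.10, SE 0.21, edgeR adjusted p = 3.26e-06). Slc15a2, the peptide transporter gene of the kidney, held 3.82, 3.98 and 4.68 CPM against 33.4, 34.7 and 25.7 CPM, 7.53-fold more (log2 fold change 2.91, SE 0.25, edgeR adjusted p = 9.77e-07). The next genes handle bile acids and cholesterol. Abcb11, the bile salt export pump gene, held 8.34, 10.4 and 7.799 CPM against 30.6, 37.9 and 33.4 CPM (log2 fold change 1.94, SE 0.22, edgeR adjusted p = 2.21e-05). Npc1l1, the gene for cholesterol uptake in the gut, held 10.8, 11.5 and 10.8 CPM against 29.97, 50.3 and 62.7 CPM (log2 fold change 2.11, SE 0.24, edgeR adjusted p = 2.21e-05). Cyp7a1, the rate-limiting enzyme gene of bile acid synthesis, was picked after its values were seen and held 8.63, 5.28 and 5.56 CPM against 18.98, 12.1 and 16.8 CPM (edgeR adjusted p = 0.0171). Its call was lost when heterozygous replicate 2 or knockout replicate 1 or 3 was left out. Among plasma proteins, Apoh, which encodes beta-2-glycoprotein I, held 0.707, 0.893 and 1.17 CPM against 12.6, 18.4 and 16.9 CPM, 17.4-fold more (log2 fold change 4.12, SE 0.37, edgeR adjusted p = 1.43e-06). Of 81 tested cytochrome P450 genes 10 rose and 0 fell. The strongest named one, Cyp4a12b of the fatty acid hydroxylases, held 1.27, 3.17 and 2.44 CPM against 20.7, 15.9 and 18.8 CPM. The P450 count fell to 5 without knockout replicate 1 and to 4 when all ages shared 1 fit. Of 46 serpins 3 rose, and of 357 solute carriers 8 rose (2.24%, near the 2.06% of all genes). The solute carrier count dropped to 5, 4, 5 and 4 without heterozygous replicates 1 and 2 and knockout replicates 1 and 2.

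Some genes best known from white blood cells and vessels also rose, although most defining markers of those cells did not. Mrc1, the macrophage mannose receptor gene, held 24.96, 16.3 and 26.2 CPM in heterozygous and 80.9, 65.7 and 78.8 CPM in knockout libraries (log2 fold change 1.74, SE 0.19, edgeR adjusted p = 1.48e-05). Adgre1, the gene of the macrophage marker F4/80, held 4.67, 3.57 and 3.705 CPM against 11.99, 15.1 and 15.1 CPM (log2 fold change 1.81, SE 0.30, edgeR adjusted p = 0.00109). Lamp3, a lysosomal membrane gene of dendritic cells, held 6.504, 9.09 and 16.96 CPM against 47.6, 63.7 and 53.4 CPM (log2 fold change 2.35, SE 0.27, edgeR adjusted p = 3.10e-05). Over the 12 tested macrophage and white blood cell markers, 2 rose (Mrc1 and Adgre1) and 0 fell. The median log2 fold change of the 12 was 0.16, with 9 above 0. The summed level of the list was 72.2 to 96.2 CPM in heterozygous and 134 to 167 CPM in knockout libraries. Of that sum Mrc1 alone held 16.3 to 26.2 and 65.7 to 80.9 CPM. The part of such cells in these values was not tested. The complement genes C1qa, C1qb and C1qc reached at most 0.721 CPM in any of the 6 libraries, Tyrobp 0.990 CPM, Cd14 0.877 CPM and Lyz2 1.07 CPM. Ptprc (3.75 to 4.78 and 5.08 to 8.65 CPM) and Csf1r (0.325 to 3.31 and 0.395 to 2.07 CPM) did not pass. Thbd, the thrombomodulin gene of vessel walls, held 2.62, 1.22 and 3.22 CPM against 27.98, 20.2 and 19.6 CPM (log2 fold change 3.27, SE 0.33, edgeR adjusted p = 5.10e-06). Its neighbour Cd93 rose too, from 2.55, 5.52 and 8.58 CPM to 15.2, 28.01 and 18.1 CPM. Tek and Vwf, defining endothelial markers, did not pass (log2 fold changes 0.51 and -0.22).

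Chemosensory receptor genes rose from very low levels. Of 1125 olfactory receptor genes listed, 209 were tested, and 40 rose while 0 fell. The summed level of all 1125 was 339.8, 458 and 557 CPM in heterozygous and 850.4, 989 and 789 CPM in knockout libraries. Of 337 vomeronasal receptor genes 87 were tested, and 25 rose (28.7%) while 0 fell, with sums of 116 to 207 and 340.4 to 423 CPM. The groups did not overlap in either sum. Genes this low could enter the test through their knockout counts alone, so the counts of called receptors are a description only. Olfr695 held 5.02, 10.8 and 13.7 CPM against 33.1, 37.8 and 21.4 CPM, and Vmn2r78 held 0.566, 1.79 and 2.44 CPM against 12.7, 21.01 and 14.8 CPM (edgeR adjusted p = 0.00381 and 5.19e-05). The olfactory count was 26 without knockout replicate 2, and the vomeronasal count was 15 without knockout replicate 3. Without heterozygous replicate 2 or knockout replicate 1 the vomeronasal count was 16. In 1 fit of all ages the counts were 9 and 6. These receptor genes have near-identical copies, so reads may have been shared among them, and how the authors counted such reads is not stated.

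A few genes had no count in any heterozygous library. Adam39, a protease gene of the testis, had 0 counts in heterozygous and 4.08, 3.65 and 4.598 CPM in knockout libraries, at least 50.4-fold more against a floor of 3 counts over the group. Tas2r144, a bitter taste receptor gene, was at least 17.3-fold higher, and Zscan4a, a gene of the cleavage-stage embryo, at least 15.1-fold higher. Spam1, a sperm hyaluronidase gene, held 0.353, 1.38 and 0.585 CPM against 9.49, 9.17 and 5.77 CPM (log2 fold change 3.39, SE 0.50, edgeR adjusted p = 3.68e-04). Cst11, a cystatin gene of the epididymis, held 0.636, 0.487 and 0.682 CPM against 13.5, 13.4 and 9.92 CPM (log2 fold change 4.33, SE 0.40, edgeR adjusted p = 1.59e-06). Zscan4a lost its call without knockout replicate 1 (edgeR adjusted p = 0.0512). Olfr11 held 0, 0 and 1.27 CPM against 18.5, 23.7 and 14.5 CPM, so all its heterozygous counts came from replicate 3. Olfr293 lost its call without knockout replicate 3 (edgeR adjusted p = 0.062).

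**Figure D1:**
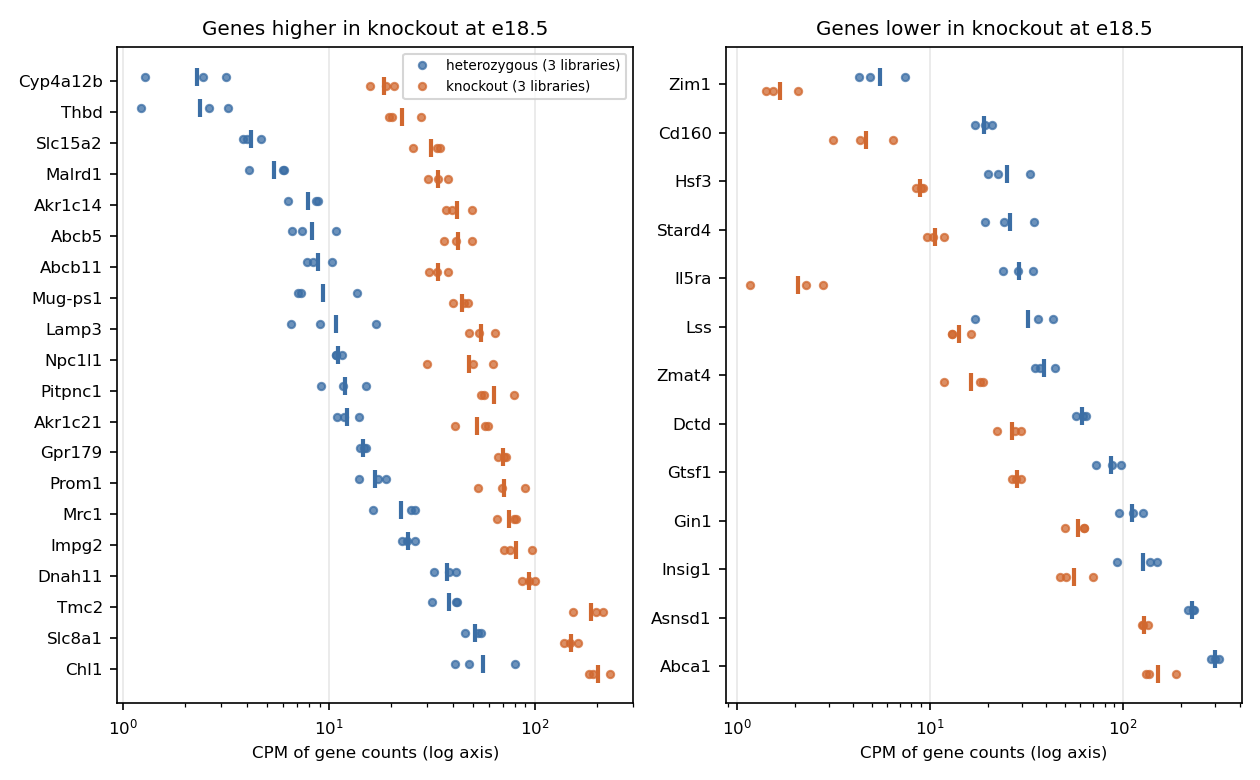
Level of named genes in each of the 6 libraries at e18.5, in CPM on a log axis, with points for libraries and vertical bars for group means (blue heterozygous, orange knockout). Tmc2 sits between 31.8 and 42.0 CPM in heterozygous and between 153 and 214 CPM in knockout libraries, and Il5ra falls from at least 23.9 CPM to at most 2.79 CPM.

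The promoters of the genes that rose were poor in CpG dinucleotides, the bases that DNA methylation acts on. Promoters are the 250 bases before each gene's annotated start, from RefSeq in build GRCm38.p6, matched by symbol for 14183 of the genes tested. The ratio of observed to expected CpG had a median of 0.196 over 289 genes that rose, 0.624 over 32 that fell and 0.645 over all 14183. Leaving out the olfactory and vomeronasal receptors gave 0.273 over 233 genes. A ratio of 0.6 or more was found in 20.4% of promoters of genes that rose, 56.3% of those that fell and 55.0% of all. The medians also differed within classes of level. Under 10 CPM in heterozygous cells the median was 0.130 over 194 genes that rose and 0.434 over 6364 tested. That class did not leave out the receptors, and levels within it were not matched. Of all tested genes, 126 of 894 under 1 CPM rose and 132 of 7419 from 1 to 10 CPM. Most of those under 1 CPM entered the test through their knockout counts, so the contrast in that class is partly set by the filter. At 10 CPM or more the median ratio was 0.578 over 95 genes that rose and 0.751 over 7819 tested. These are descriptions of sets of genes with no test.

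The promoters of 8 genes show that range, with each CpG in capitals and all other bases in lower case. The genes were chosen after their values were seen. Akr1c14 (chr13:4059341-4059590, plus strand) and Akr1c21 (chr13:4573825-4574074, plus strand) hold 1 CpG each, and Apoh (chr11:108395047-108395296, plus strand), Mrc1 (chr2:14229164-14229413, plus strand) and Cyp4a32 (chr4:115600688-115600937, plus strand) hold 3 each. Cbx5 (chr15:103239853-103240102, minus strand), which also rose, holds 22. Of the genes that fell, Gtsf1 (chr15:103430428-103430677, minus strand) holds 7 and Insig1 (chr5:28071162-28071411, plus strand) holds 34.
Akr1c14: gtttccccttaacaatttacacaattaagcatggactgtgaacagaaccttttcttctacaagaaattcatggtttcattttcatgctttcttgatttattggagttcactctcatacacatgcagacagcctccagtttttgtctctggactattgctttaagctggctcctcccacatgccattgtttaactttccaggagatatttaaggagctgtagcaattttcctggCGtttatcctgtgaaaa
Akr1c21: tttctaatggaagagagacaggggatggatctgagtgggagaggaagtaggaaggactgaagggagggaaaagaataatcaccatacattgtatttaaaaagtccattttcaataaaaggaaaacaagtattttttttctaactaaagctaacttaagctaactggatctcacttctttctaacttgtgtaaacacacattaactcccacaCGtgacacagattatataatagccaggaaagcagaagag
Apoh: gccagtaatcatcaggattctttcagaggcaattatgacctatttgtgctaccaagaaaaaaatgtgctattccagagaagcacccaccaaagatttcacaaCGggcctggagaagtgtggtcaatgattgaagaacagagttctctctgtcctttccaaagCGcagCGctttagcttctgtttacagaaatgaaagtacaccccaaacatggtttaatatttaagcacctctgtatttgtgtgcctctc
Mrc1: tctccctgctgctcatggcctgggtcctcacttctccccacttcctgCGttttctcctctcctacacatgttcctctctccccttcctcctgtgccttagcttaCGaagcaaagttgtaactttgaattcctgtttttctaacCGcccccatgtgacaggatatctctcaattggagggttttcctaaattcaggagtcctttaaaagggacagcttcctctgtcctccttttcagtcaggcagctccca
Cyp4a32: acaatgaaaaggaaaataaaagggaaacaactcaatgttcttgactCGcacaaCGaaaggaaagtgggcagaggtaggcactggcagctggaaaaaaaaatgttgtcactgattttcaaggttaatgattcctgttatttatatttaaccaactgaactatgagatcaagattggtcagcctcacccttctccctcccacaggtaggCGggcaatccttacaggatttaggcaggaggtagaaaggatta
Cbx5: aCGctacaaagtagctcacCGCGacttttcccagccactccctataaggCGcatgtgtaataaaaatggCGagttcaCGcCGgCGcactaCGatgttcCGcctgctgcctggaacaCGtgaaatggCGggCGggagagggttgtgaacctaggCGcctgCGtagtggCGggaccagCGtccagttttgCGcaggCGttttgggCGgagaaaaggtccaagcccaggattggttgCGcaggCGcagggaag
Gtsf1: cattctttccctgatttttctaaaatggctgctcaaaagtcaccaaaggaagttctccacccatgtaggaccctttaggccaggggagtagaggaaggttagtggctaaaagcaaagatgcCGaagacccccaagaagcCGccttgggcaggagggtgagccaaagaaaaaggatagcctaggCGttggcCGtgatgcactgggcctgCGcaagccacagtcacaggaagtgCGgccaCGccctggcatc
Insig1: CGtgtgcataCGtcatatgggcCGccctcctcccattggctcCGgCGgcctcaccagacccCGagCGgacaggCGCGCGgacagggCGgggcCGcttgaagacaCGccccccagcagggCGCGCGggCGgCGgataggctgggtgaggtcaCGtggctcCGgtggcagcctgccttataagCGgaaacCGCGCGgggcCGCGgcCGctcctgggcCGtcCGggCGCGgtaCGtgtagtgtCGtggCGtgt
The ratio of observed to expected CpG was 0.109 for Akr1c14, 0.124 for Akr1c21, 0.273 for Apoh, 0.220000 for Mrc1 and 0.281 for Cyp4a32. It was 1.02 for Cbx5, 0.380000 for Gtsf1 and 1.03 for Insig1. Cyp4a32, a fatty acid hydroxylase gene, held 0.707, 0.812 and 1.27 CPM in heterozygous and 4.496, 6.41 and 10.7 CPM in knockout libraries. The letters TATAAA, read on either strand, stood in 17.3% of promoters of genes that rose, 6.25% of those that fell and 8.55% of all. Without the olfactory and vomeronasal receptors the share was 13.3% of those that rose. Under 10 CPM in heterozygous cells it was 22.2% of those that rose and 11.3% of all tested, with the same limit from the filter. At 10 CPM or more the TATAAA share was 7.37% and 6.36%. The median GC content was 44.8% in promoters of genes that rose and 58.0% in all. The letters CACGTG, which read the same on both strands, hold a CpG and cannot overlap TATAAA, stood in 7 of 32 promoters of genes that fell (21.9%), 4.15% of those that rose and 7.81% of all. The 7 were Abca1, Hsf3, Insig1, Mbd5, Mcf2, Taf9b and Tle3.

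**Figure D2:**
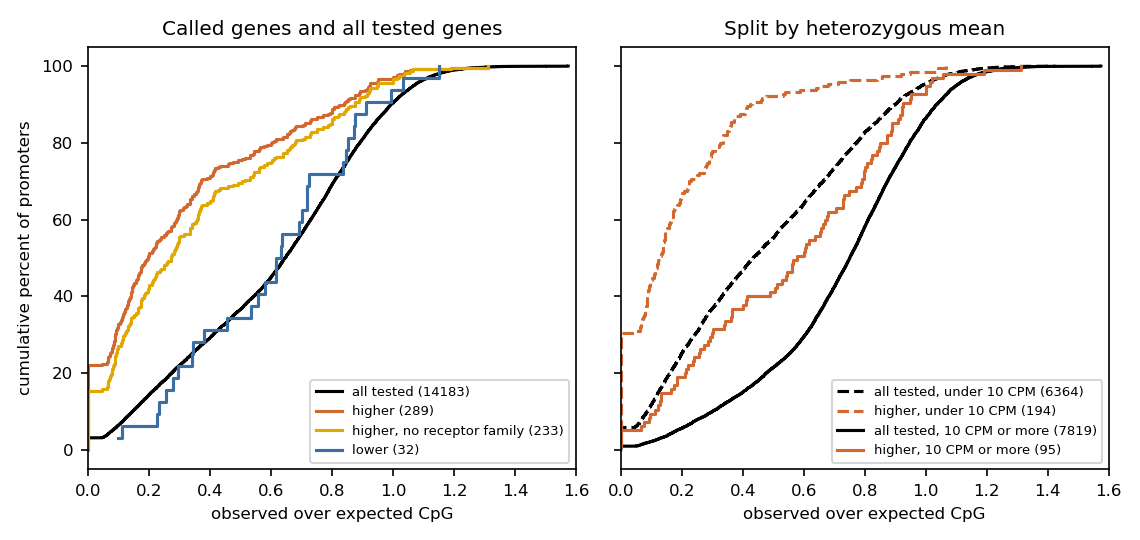
Cumulative percent of promoters (vertical axis) by the ratio of observed to expected CpG in the 250 bases before the start (horizontal axis), for called and all tested genes (left) and split by heterozygous mean (right). The curve of genes that rose lies left of all tested genes (medians 0.196 and 0.645), also among genes of 10 CPM or more (0.578 and 0.751).

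Some genes that rose lay next to each other. With RefSeq gene order, 83 of 372 placed genes that rose (22.3%) had a next tested neighbour that also rose, where 3.99% of all tested genes had such a neighbour. They formed 39 runs of 2 or 3 genes. Runs included Vmn2r114, Vmn2r115 and Vmn2r116, Olfr1501, Olfr1502 and Olfr1504, the chitinase-like genes Chil3 and Chil4, the pair Thbd and Cd93, and the guanylate-binding genes Gbp8 and Gbp9. Several runs were families of near-identical genes, whose reads may be shared. Neighbours were taken among tested genes only. Genes under 1 CPM in heterozygous cells mostly entered the test through their knockout counts. Members of a silent cluster that rose could thus become next neighbours, so these shares are a description only. Of the 49 genes that fell 0 had a neighbour that fell, which 0.544% of all tested genes had.

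The genes that fell held a piRNA factor, a cytokine receptor gene and genes of cholesterol metabolism. Gtsf1, which encodes a small zinc finger partner of PIWI proteins needed for retrotransposon silencing, held 72.04, 87.8 and 97.9 CPM in heterozygous and 29.6, 27.9 and 26.7 CPM in knockout libraries (log2 fold change -1.61, SE 0.17, edgeR adjusted p = 5.58e-06). It was the 1 of 10 tested nuclear piRNA genes that passed, while 0 of 27 piRNA biogenesis and germ granule genes passed in edgeR or DESeq2, or had an unadjusted p under 0.05. Il5ra, the interleukin 5 receptor alpha gene, held 23.9, 34.2 and 28.7 CPM against 1.17, 2.27 and 2.79 CPM (log2 fold change -3.80, SE 0.31, edgeR adjusted p = 6.44e-07). Apart from Tex15 it was the strongest decrease. Cd160, an immune receptor gene, held 17.2, 19.3 and 20.9 CPM against 3.16, 6.41 and 4.33 CPM (log2 fold change -2.05, SE 0.30, edgeR adjusted p = 3.18e-04). Asnsd1, a gene with an asparagine synthetase domain, held 215, 232 and 230.0 CPM against 126, 125 and 134 CPM (log2 fold change -0.81, SE 0.12, edgeR adjusted p = 4.40e-04). Gin1, a gene derived from a retrotransposon integrase, held 113, 127 and 94.6 CPM against 62.9, 50.2 and 62.7 CPM (log2 fold change -0.93, SE 0.16, edgeR adjusted p = 0.0014). Hsf3, a heat shock factor gene, held 22.5, 19.97 and 32.95 CPM against 9.16, 8.98 and 8.47 CPM (log2 fold change -1.50). In each of these genes the groups lay apart, and each kept its call when any 1 library was left out.

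Of 30 tested genes of sterol synthesis, uptake and transport 4 fell and 0 rose, with a median log2 fold change of -0.43 over the 30. At an unadjusted p under 0.05 there were 12 lower and 0 higher, where 11.3% of all genes passed in either direction (830 lower of 18075). DESeq2 called 5 lower. Abca1, the cholesterol export pump gene, held 298, 311 and 286 CPM in heterozygous and 188, 131 and 135 CPM in knockout libraries (log2 fold change -0.98, SE 0.14, edgeR adjusted p = 3.05e-04). Insig1, whose protein holds back sterol synthesis when sterols are plentiful, held 149.6, 137 and 92.3 CPM against 46.9, 50.6 and 69.9 CPM (log2 fold change -1.18, SE 0.19, edgeR adjusted p = 7.30e-04). Stard4, a cholesterol carrier gene, held 34.4, 24.2 and 19.3 CPM against 11.8, 10.4 and 9.65 CPM (log2 fold change -1.29, SE 0.25, edgeR adjusted p = 0.00466). The 4 members do not share a direction of action, since ABCA1 exports cholesterol and LSS makes its precursor. Lss, the lanosterol synthase gene, held 36.4, 43.3 and 17.2 CPM against 12.99, 16.3 and 12.98 CPM (log2 fold change -1.20, SE 0.27, edgeR adjusted p = 0.0181), with groups that came close between heterozygous replicate 3 and knockout replicate 2. It lost its call in 4 of the 6 fits without 1 library. Fdps (log2 fold change -1.06) and Sqle (-0.42), picked after their values were seen, did not pass.

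Some of the decreases lay near Tex15. Of the 200 tested genes within 100 tested genes of Tex15 on either side, 6 fell, where 0.271% of all genes did. In the same window 4 rose, near the 2.06% of all genes. Other windows were looked at too. Within 25 tested genes on either side 2 of 50 fell, within 50 3 of 100, and within 200 6 of 371. Asah1, the acid ceramidase gene, held 65.2, 71.3 and 68.8 CPM in heterozygous and 36.8, 35.9 and 36.8 CPM in knockout libraries (log2 fold change -0.91, SE 0.16, edgeR adjusted p = 0.00169). Dctd, the dCMP deaminase gene, held 56.7, 61.6 and 64.2 CPM against 22.3, 27.4 and 29.5 CPM (log2 fold change -1.20, SE 0.17, edgeR adjusted p = 3.21e-04). Zmat4, a zinc finger gene, held 44.4, 34.9 and 37.2 CPM against 18.1, 18.7 and 11.8 CPM (log2 fold change -1.26, SE 0.22, edgeR adjusted p = 0.00164). All 3 kept their calls without any 1 library. Gsr, the glutathione reductase gene 3 tested genes from Tex15, held 81.02, 82.9 and 85.2 CPM against 52.04, 53.1 and 55.1 CPM, with log2 fold change -0.64. Dusp26, a phosphatase gene, held 60.02, 67.6 and 39.97 CPM against 26.3, 37.4 and 31.6 CPM, and Fbxo25, an F-box gene, 26.2, 30.7 and 33.5 CPM against 16.2, 18.8 and 12.1 CPM. Each of Gsr, Dusp26 and Fbxo25 lost its call in 4 of the 6 fits without 1 library. None of the 6 passed at e16.5 or d2, where Dusp26 had log2 fold changes of -0.80 and -0.99 and Dctd -0.90 and -0.49. The strain background was mixed, and effects of the Tex15 allele and of DNA linked to it cannot be told apart.

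Other pathways showed few or no called genes. In the heterochromatin list Cbx5 alone of 29 rose (479, 356 and 412 CPM against 727, 680.4 and 736 CPM, edgeR adjusted p = 5.52e-04). Of 32 recombination repair genes Fancd2, of the Fanconi pathway, rose (70.6, 97.2 and 73.1 CPM against 112, 176 and 146 CPM). Kit, the stem cell factor receptor gene, was the 1 of 25 pluripotency and primordial germ cell genes that rose (90.2, 88.9 and 89.99 CPM against 118, 128 and 142 CPM). Of 36 meiotic prophase genes Syce2 fell (-0.72), and of 35 imprinted genes Cdkn1c, Rasgrf1 and Zim1 fell (-0.81, -0.59 and -1.73). These single calls were not stable. Without 1 library Syce2 and Rasgrf1 lost theirs in 6 of 6 fits, Kit and Zim1 in 5 and Cdkn1c in 4, and the imprinted count was 0 or 1 in each fit. Fancd2 lost its call without knockout replicate 2, and Cbx5 kept its call in all 6 fits. The lists of DNA methylation machinery (19 tested), interferon and nucleic acid sensing (32), p53 targets (22), spermatogonial stem cells (25), germline genes with methylation-controlled promoters (26), proliferation (32) and immediate early genes (26) had 0 called genes in edgeR and in DESeq2, with 0 to 5 members each at an unadjusted p under 0.05 (11.3% of all genes). Their medians lay between -0.13 and -0.02. At that unadjusted level the germline (5 of 26, all lower), stem cell (5 of 25), p53 (3 of 22) and interferon (4 of 32) lists exceeded the share of all genes. The rest of these lists lay below it. Among families, 2 zinc finger genes named Zfp rose and 1 fell of 364. Rhox genes (13), ribosomal protein genes (98) and keratins (41) had 0 calls in edgeR and DESeq2, with 2, 3 and 7 members at an unadjusted p under 0.05. The 11.3% of all genes at that level lies below the keratin and Rhox shares and above that of the ribosomal proteins. The 27 clustered protocadherins had 0 calls in edgeR and 1 in DESeq2, with 5 at an unadjusted p under 0.05.

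Young retrotransposons rose in knockout cells. Of 1130 repeat names tested 89 were called in edgeR (7.88%), of which 85 rose (7.52%) and 4 fell (0.354%). With the repeats' own TMM factors 145 rose and 57 fell, and the median log2 fold change of all names was -0.03 in place of 0.11. With the repeats' own totals 124 rose and 59 fell, and with voom 160 rose and 85 fell. Leaving out heterozygous replicates 1 and 2 in turn left 55 and 51 called names, and leaving out knockout replicate 1 left 51. The share of counts in repeats was 58.4% ± 3.08 (SD, n = 3) in heterozygous and 61.1% ± 3.43 in knockout libraries (two-sided exact permutation p = 0.5, smallest possible 0.1).

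All 6 L1Md names, the class taken here as young L1 elements, rose, and all 6 did so in every fit without 1 library. Their summed level was 40191 ± 16929 CPM in heterozygous and 97554 ± 9817 CPM in knockout libraries (SD, n = 3). L1Md_T held 6392, 7290.5 and 14449 CPM against 22219, 26397 and 28795 CPM (log2 fold change 1.46, SE 0.21, edgeR adjusted p = 8.22e-10). L1Md_A held 3239.6, 3599 and 7335 CPM against 11423, 12586 and 13351 CPM (log2 fold change 1.40, SE 0.21, edgeR adjusted p = 6.86e-09). L1Md_Gf, the least abundant, held 382, 444 and 919.7 CPM against 1628, 1935 and 2080.3 CPM (log2 fold change 1.69, SE 0.21, edgeR adjusted p = 2.46e-13). Heterozygous replicate 3 was the highest of its group for all 6 names, and without it the log2 fold change of L1Md_T was 1.92. With the repeats' own totals 4 of the 6 names passed, and L1Md_T (edgeR adjusted p = 0.058) and L1Md_A (0.063) did not. Of 105 older L1 names 5 rose (4.76%, where 7.52% of all repeat names did). The count became 1, 0 and 16 when heterozygous replicates 1, 2 and 3 were left out in turn, and 1 when knockout replicate 1 or 2 was.

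**Figure D3:**
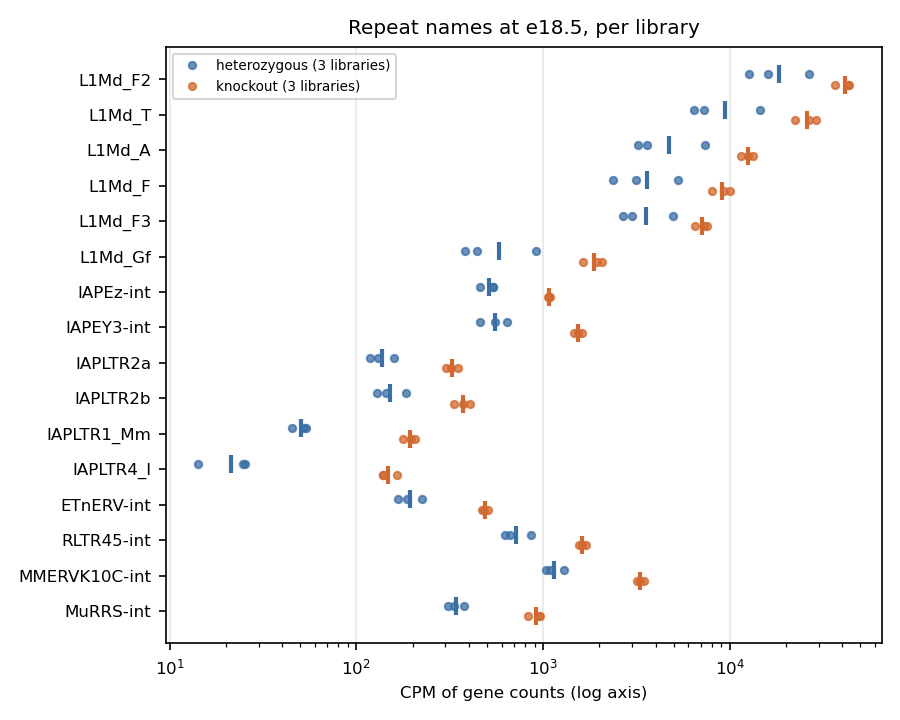
Level of 16 repeat names in each of the 6 libraries at e18.5, in CPM of gene counts on a log axis, with points for libraries and vertical bars for group means (blue heterozygous, orange knockout). The knockout libraries of L1Md_Gf and IAPLTR4_I all lie above their heterozygous libraries, and heterozygous replicate 3 is the highest point of its group for each L1Md name.

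Of 16 IAP names 15 rose, with a median log2 fold change of 1.07, and the count was 12 to 16 in fits without 1 library. IAPLTR4_I, the internal part of an IAP type, held 14.3, 25.3 and 24.8 CPM in heterozygous and 139, 139 and 166 CPM in knockout libraries (log2 fold change 2.79, SE 0.24, edgeR adjusted p = 1.01e-27). IAPLTR1_Mm, a long terminal repeat that holds the viral promoter, held 45.1, 52.6 and 53.5 CPM against 206, 178 and 196 CPM (log2 fold change 1.94, SE 0.23, edgeR adjusted p = 9.02e-15). IAPEz-int, the internal part of the main IAP group, held 459, 538 and 536 CPM against 1068, 1071 and 1090.5 CPM (log2 fold change 1.07, SE 0.20, edgeR adjusted p = 6.04e-06). Knockout libraries of IAPEz-int lay close together and above every heterozygous library. IAPEY3-int held 462, 556 and 640.0 CPM against 1459, 1545 and 1607 CPM (log2 fold change 1.48, SE 0.21, edgeR adjusted p = 1.87e-10). IAPEy-int was the 1 name that did not pass (log2 fold change 0.57, edgeR adjusted p = 0.0613).

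Related retroviruses rose as well. All 6 MusD and ETn names rose, with a median log2 fold change of 1.02, and 4 to 6 did so without any 1 library. ETnERV-int held 168, 186 and 225 CPM in heterozygous and 469, 485 and 509.5 CPM in knockout libraries (log2 fold change 1.34, SE 0.21, edgeR adjusted p = 2.07e-08). MMERVK10C-int, of a group of ERVK retroviruses, held 1035, 1095 and 1301 CPM against 3477, 3191 and 3284 CPM (log2 fold change 1.54, SE 0.21, edgeR adjusted p = 1.37e-10). It was 1 of 24 of the 124 other ERVK names that rose, a count that dropped to 11 and 9 without heterozygous replicates 1 and 2, and to 10 and 12 without knockout replicates 1 and 2. Of 235 ERV1 names 18 rose (7.66%, near the 7.52% of all repeat names) and 1 fell. MuRRS-int held 310.0, 333 and 379.5 CPM against 827, 959 and 955 CPM (log2 fold change 1.42, SE 0.21, edgeR adjusted p = 8.68e-10). MURVY-int, a retrovirus whose copies lie on the Y chromosome, held 220.3, 320.0 and 260.3 CPM against 472, 550.0 and 427 CPM (log2 fold change 0.86, SE 0.21, edgeR adjusted p = 8.88e-04). In both the groups did not overlap.

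Other classes held few calls. MERVL, a retrovirus of the cleavage-stage embryo, had 0 of 7 names called, with log2 fold changes from 0.21 to 0.39. SINE names (0 of 38) and L2 and other LINE names (0 of 8) had none either. These 3 classes had 0 calls in DESeq2 and 0 members at an unadjusted p under 0.05, which 14.5% of all repeat names had. DNA transposons had 0 of 87 in edgeR, 1 in DESeq2 and 3 at an unadjusted p under 0.05. The MT, ORR1 and MLT group had 3 higher and 1 lower of 110, with 0 higher once heterozygous replicate 1 or 2 or knockout replicate 2 was left out. Of the 4 satellite names SYNREP_MM fell (16.3, 15.7 and 21.6 CPM against 5.58, 8.88 and 12.9 CPM), a call lost without heterozygous replicate 3 and without knockout replicate 1. GSAT_MM, the major satellite of the chromosome centres, was added after its values were seen. It held 30497, 14415 and 28147 CPM in heterozygous and 4029.9, 1115 and 1296 CPM in knockout libraries. The groups did not overlap, and edgeR did not call it (log2 fold change -3.50, edgeR adjusted p = 0.0979), while DESeq2 did (adjusted p = 2.12e-05). In edgeR it was called lower without heterozygous replicate 2 (adjusted p = 5.29e-12), without knockout replicate 1 (adjusted p = 1.20e-34), in 1 fit of all ages (adjusted p = 0.0452) and after TMM scaling on the repeats themselves (adjusted p = 0.0491). Of 51 families tested 4 were called (7.84%), of which 3 rose (5.88%) and 1 fell (1.96%). L1 (0.83) and ERV1 (0.86) rose in every fit without 1 library, ERVK (0.52) lost its call in 4 of those 6, and Satellite fell (-1.31). The Satellite family held 9552.5, 5632 and 9863 CPM in heterozygous libraries, below GSAT_MM alone. Family and name counts of satellites are thus not on 1 scale, and the family value is no separate check of GSAT_MM. With the repeats' own TMM factors the Satellite call was lost (edgeR adjusted p = 0.103).

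**Figure D4:**
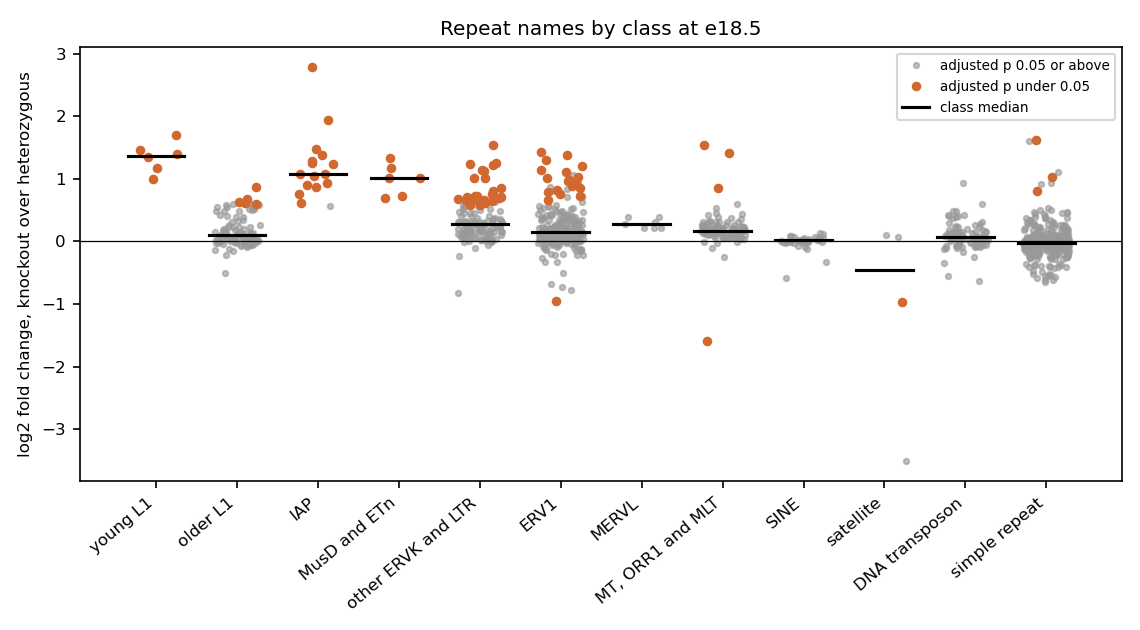
Log2 fold change of each tested repeat name at e18.5 (vertical axis) by class (horizontal axis), with orange points for names with an adjusted p under 0.05 in edgeR and black bars for class medians. All 6 young L1 names and 15 of 16 IAP names are orange and above 0, while the 7 MERVL names lie between 0.21 and 0.39 with none orange.

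At e16.5 Tex15 was the only gene called, of 16384 tested (0.0061%). Of the 373 genes that rose at e18.5, 299 were tested at e16.5, with a median log2 fold change of 0.07 there. Among repeat names at e16.5, 0.0898% rose and 0.18% fell. Tests of the difference between the ages called 18 of 18619 genes (0.0967%), with 0.0645% higher and 0.0322% lower at e18.5. On simulated data this test recovered 14% of 2-fold and 43% of 4-fold changes, so many differences may be missed. The count of genes was 3 without heterozygous replicate 1 of e18.5 and 38 without heterozygous replicate 1 of e16.5. The same test called 82 of 1148 repeat names (7.14%), all higher at e18.5, and 36 when heterozygous replicate 1 of e18.5 or knockout replicate 2 of e16.5 was left out. Of the families 3.92% had a higher effect at e18.5. Tmc2 measured 119 ± 19.99 and 91.6 ± 10.5 CPM (SD, n = 3) in heterozygous and knockout cells at e16.5, and the knockout effect was larger at e18.5 by 2.65 on the log2 scale (edgeR adjusted p = 6.97e-04). Gtsf1 measured 60.6 ± 8.49 and 85.5 ± 6.98 CPM at e16.5, a difference in effect of -2.13 (edgeR adjusted p = 2.04e-05). Abca1 measured 99.5 ± 10.8 and 149 ± 28.99 CPM at e16.5, a difference of -1.58 (edgeR adjusted p = 4.61e-04). Among these 18 genes were also Insig1, Thbd and Lamp3, which lost the call in 3, 6 and 8 of the 20 fits without 1 library, while Tmc2, Gtsf1 and Abca1 kept theirs in all 20. All 6 young L1 names and 12 of 16 IAP names differed between the ages. L1Md_A measured 4241 ± 566 and 3517 ± 474 CPM at e16.5, and IAPLTR4_I 42.2 ± 5.96 and 52.2 ± 18.4 CPM. IAPLTR1_Mm had risen at e16.5 too (103 ± 21.5 and 196 ± 24.4 CPM), and its effect still differed (0.99, edgeR adjusted p = 0.0135), a call lost in 5 of the 20 fits.

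Part of the increases were present at d2. Of the 184 genes of the 373 tested at d2, 60 rose there too and 0 fell, where 2.8% of all genes tested at d2 were called and 2.03% rose. Genes nearly silent in heterozygous cells at d2 could be tested there only through their knockout counts. The 184 thus favour genes high in knockout cells at d2, and the count of 60 is a description only. Of the repeat names 8.6% were called at d2, with 8.51% higher and 0.0925% lower. The 60 were 16.1% of the genes that rose at e18.5 and 19.3% of the 311 that rose at d2. In heterozygous cells 67.5% of the genes that rose in the knockout fell between e16.5 and d2, against 23.4% of all genes tested. Levels of the 3 ages were scaled in separate tables. Cdh12, a cadherin gene, measured 63.8 ± 15.99 and 65.6 ± 8.24 CPM (SD, n = 3) in heterozygous and knockout cells at e16.5, 16.9 ± 10.6 and 63.8 ± 1.21 CPM at e18.5 and 1.85 ± 1.04 and 107 ± 6.08 CPM (n = 4) at d2. Abcb11 measured 18.1 ± 4.05 and 18.5 ± 4.61 CPM, 8.84 ± 1.37 and 33.9 ± 3.69 CPM and 0.0435 ± 0.05195 and 7.24 ± 1.95 CPM. In both genes the heterozygous mean was lower at each later age, while the knockout mean at e18.5 lay near or above that at e16.5. Gnat3, the taste G protein gene, measured 26.3 ± 8.78 and 25.1 ± 6.61 CPM, 5.94 ± 1.78 and 20.3 ± 1.41 CPM and 0.426 ± 0.662 and 71.7 ± 16.3 CPM. Cyp4a12b had 0 counts in heterozygous cells at d2 and 21.7 ± 4.29 CPM (SD, n = 4) in knockout cells. The knockout effect differed between e18.5 and d2 for 98 of 18619 genes (0.526%), with 32 differences above 0 and 66 below. The count was 31 without knockout replicate 3 of e18.5. It was smaller at e18.5 for Cdh12 (-3.97), Abcb11 (-4.96) and Gnat3 (-5.76).

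Other genes differed at e18.5 without a call at d2. Mrc1 measured 31.3 ± 6.05 and 35.6 ± 5.05 CPM in heterozygous and knockout cells at d2 (SD, n = 4), and the effect was larger at e18.5 by 1.55 (edgeR adjusted p = 0.0365). Npc1l1 measured 14.5 ± 3.07 and 12.002 ± 3.87 CPM at d2, a difference of 2.36 (edgeR adjusted p = 0.021). Impg2 measured 11.8 ± 4.47 and 9.24 ± 1.23 CPM at d2, a difference of 2.08 (edgeR adjusted p = 0.00619). Dnah11 was a further one (1.48). Of the 20 fits without 1 library, the difference lost its call in 9 for Mrc1, 4 for Npc1l1 and 3 for Dnah11, and in 0 for Impg2. Abca1 rose at d2 (log2 fold change 0.51, edgeR adjusted p = 0.0189), the reverse of e18.5. Insig1 and Lss fell at d2 as well (-0.74 and -0.67). Gtsf1 measured 91.9 ± 14.1 and 68.3 ± 7.58 CPM at d2, and its effect differed by -1.19 (edgeR adjusted p = 0.00883). Among 12 repeat names that differed (1.05%, with 0.436% higher and 0.61% lower at e18.5), IAPLTR4_I (1.59) and MuRRS-int (1.29) had the larger effect at e18.5 and IAPEz-int (-1.07) and IAPLTR1_Mm (-1.24) at d2. Knockout replicate 2 of d2 held Tex15 at 104 CPM, against 2.07 to 2.62 CPM in the other 3. Without it the effect differed from d2 for 226 genes, all 98 among them.

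**Figure D5:**
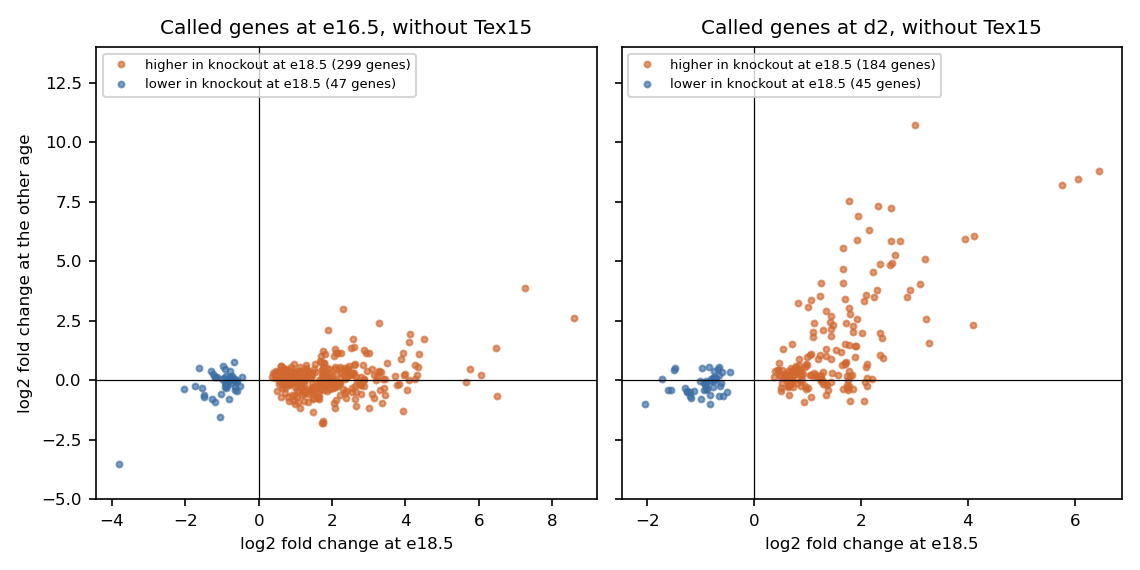
Log2 fold change of the genes called at e18.5 (horizontal axis) against that at e16.5 (left, vertical axis) and at d2 (right), for genes tested at both ages and without Tex15 (orange higher and blue lower at e18.5). At e16.5 the 299 orange points have a median of 0.07, and at d2 145 of 184 lie above 0. Genes nearly silent in heterozygous cells at d2 appear there only if their knockout counts passed the filter.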

How the data were processed

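RNA sequencing counts of sorted male germ cells heterozygous or knockout for Tex15 at e18.5 were used (3 libraries each), with the libraries of e16.5 and d2 for comparison. The submitters' processing notes name Bowtie, STAR, featureCounts and edgeR, and mm9 as the genome build. Versions, roles, strand use and the counting of reads with several places are not given in the sources used here. RNA was extracted with PicoPure and amplified with Ovation kits, per the labels' protocols. The deposited tables hold raw counts per gene symbol and repeat name. The authors' second table holds estimated counts per repeat family, of which 70.1% are not whole; these were rounded. Its unnamed row, 2.79 to 3.88% of family counts per library, was left out.

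Genes were filtered (filterByExpr, at least 10 counts and 15 in total), TMM-scaled and tested with edgeR 4.0.16 in R 4.3.3 (robust quasi-likelihood F test on genotype, Benjamini-Hochberg adjustment over all features, threshold 0.05). Repeats used the library sizes and TMM factors of the genes. The difference between ages was tested in a joint fit of all 20 libraries on 23853 common symbols. Floors of 3 counts cover counting error only. On simulated data edgeR recovered 43% of 2-fold and 84% of 4-fold changes among genes at e18.5 (18075 genes), with 9.93% false calls, and 93% and 99% among repeat names. For the difference between ages among genes, recovery was 14% and 43% against e16.5 and 17% and 54% against d2. Alternatives were DESeq2 1.42.0, median-ratio factors, other filters, voom in limma 3.58.1, a replicate block, 1 fit of all ages, scaling by the repeats themselves and fits that each lacked 1 library. Figures were drawn with matplotlib 3.10.9.

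Named genes are Tex15 and called genes with no overlap between groups. Increases were taken by heterozygous mean: the 10 with the highest knockout mean under 1 CPM, and those with the smallest p from 1 to 10 CPM (8) and from 10 CPM (12). Decreases with the smallest p were taken from 10 CPM (10) and below (5). Up to 4 called members per list and 2 per symbol family were added, with all young L1, IAP, MusD and ETn names, up to 3 called repeat names of each other class, and up to 6 genes and 4 repeat names per test between ages. Symbols of the Gm and Rik kind were left out of the increases and decreases. The 23 lists comprised piRNA biogenesis, nuclear piRNA, DNA methylation, heterochromatin, interferon, p53, recombination, meiosis, stem cell, pluripotency, germline, imprinted, cleavage-stage (9 tested, Zscan4a higher), sterol, proliferation, immediate early and 7 cell type lists. The members and lists were chosen with earlier results of these data known. Genes said in the text to be picked after their values were seen, and Morc1, Lair1, Cd53 and Zfp961, fall outside the rule. Gene order and promoters are from RefSeq (GRCm38.p6), matched by symbol for 24387 of 24495 symbols; no gene coordinates of that build were joined to the files.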

Additional observations from a re-analysis of the deposited data

Results flagged for a closer look

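Each value here is a difference in the knockout effect between e18.5 and another age on the log2 scale (effect at e18.5 minus that at the other age) that passed edgeR's test of the difference itself at an adjusted p under 0.05 in the joint fit of 20 libraries. Against e16.5, the effect was higher at e18.5 for these 6 named genes: 3.66 for 4930486L24Rik, 3.53 for Dcn, 2.87 for Lamp3, 2.86 for Thbd, 2.65 for Tmc2 and 1.86 for Pitpnc1. It was lower at e18.5 for 6: -0.92 for Asnsd1, -1.34 for Insig1, -1.40 for Gin1, -1.43 for Fsd1l, -1.58 for Abca1 and -2.13 for Gtsf1. Against d2, it was higher at e18.5 for 5 named genes: 2.36 for Npc1l1, 2.08 for Impg2, 1.55 for Mrc1, 1.48 for Dnah11 and 1.46 for Pitpnc1. It was lower for 13: -0.87 for Asnsd1, -1.12 for Fsd1l, -1.12 for Zfp961, -1.19 for Gtsf1, -1.49 for Abca1, -2.92 for Atp13a5, -3.01 for 4930558C23Rik, -3.96 for Samd9l, -3.97 for Cdh12, -4.96 for Abcb11, -5.05 for Vmn1r195, -5.76 for Gnat3 and -7.83 for Cyp4a12b.

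Among repeat names compared with e16.5, all 36 were higher at e18.5: 2.802 for (CACTT)n, 2.46 for IAPLTR4_I, 1.85 for L1Md_Gf, 1.65 for L1Md_A, 1.61 for IAPLTR2b, 1.53 for IAPEY3-int, 1.51 for MuRRS-int, 1.49 for L1Md_T, 1.48 for IAPLTR4, 1.48 for IAPEY_LTR, 1.42 for L1Md_F, 1.41 for MamRep488, 1.40 for IAPLTR2a, 1.39 for RLTR45-int, 1.36 for ETnERV3-int, 1.35 for L1Md_F2, 1.30 for MMERVK10C-int, 1.29 for ETnERV-int, 1.24 for RLTR10C, 1.23 for IAPLTR3-int, 1.23 for RLTR45, 1.21 for RLTR10-int, 1.18 for L1Md_F3, 1.17 for MMERGLN-int, 1.16 for IAPLTR2_Mm, 1.07 for IAPEY3_LTR, 1.07 for L1VL1, 1.06 for RNERVK23-int, 1.03 for IAPEY2_LTR, 1.01 for MURVY-int, 0.99 for IAPLTR1_Mm, 0.95 for ETnERV2-int, 0.94 for L1_Mm, 0.94 for Lx2A1, 0.92 for RLTR4_MM-int and 0.87 for IAPEy-int. Against d2, the effect was higher at e18.5 by 1.59 for IAPLTR4_I, 1.34 for MURVY-int, 1.29 for MuRRS-int and 0.94 for ETnERV-int, and lower by -1.07 for IAPEz-int, -1.16 for IAPLTR2a, -1.24 for IAPLTR1_Mm, -3.70 for MLT1L-int and -4.12 for SYNREP_MM. Of the families, the effect was higher at e18.5 than at e16.5 by 1.03 for L1 and 0.85 for ERV1, and lower by -0.84 for Satellite. Against d2 it was lower by -1.73 for Satellite. The differences of genes and repeat names were refitted 20 times, each time without 1 library. Of these 75 differences 45 kept the call in all fits and 30 lost it in at least 1. Against e16.5, losses in 6 or more of the 20 fits were 13 for Asnsd1, 9 for Dcn and (CACTT)n, 8 for Gin1, Lamp3 and IAPEy-int, 7 for Pitpnc1 and RLTR4_MM-int, and 6 for 4930486L24Rik, Thbd, ETnERV2-int, Lx2A1, MamRep488 and L1_Mm. Against d2 they were 12 for ETnERV-int, 9 for Mrc1 and Pitpnc1 and 6 for Zfp961. The 4 family differences were not refitted in this way. Among the d2 libraries, Tex15 in knockout replicate 2 held 104 CPM and stood apart from the other 3 of its group by Dixon's gap test, the 1 case in 17 groups of 4 looked at, where chance gives about 1 in 20.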

How the results depend on the processing

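Called genes at e18.5 numbered 422 in edgeR, 152 (127 higher, 25 lower) with all ages in 1 fit and 274 to 505 without any 1 library; no other setting moved the count by over 1.5 times. Repeat names numbered 89, against 245 with voom, 202 with the repeats' own TMM factors, 183 with the repeats' own totals and 51 to 90 without 1 library. Repeat families numbered 4, and 34 (2 higher, 32 lower) with the repeats' own totals, where the families Alu (-0.35) and B2 (-0.34) turned from near 0 to lower. Genes whose effect differed from e16.5 numbered 18, against 69 with DESeq2 and 3 to 38 without 1 library; from d2, 98, against 400 with DESeq2 and 31 to 226. Repeat names that differed from e16.5 numbered 82, and 36 to 97 without 1 library. The cause was not tested.

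The replicate numbers were not shown to pair the libraries: deviations of same-numbered libraries correlated at 0.122, 0.0541 and 0.0945, although each library correlated best with its own number. A replicate block gave 599 genes (490 higher, 109 lower), 92 repeat names (GSAT_MM among those lower) and 3 families. Low genes were limited by depth, since 1 count was worth 0.0707 to 0.0986 CPM. Over the single genes, repeats and lists named, fits that lacked 1 library were scored as unchanged in 2264 cases. The call was lost in 340 cases and gained in 6, and a count moved in 42. No called result changed direction. The unchanged cases include uncalled results whose sign turned, such as Csf1r (log2 fold change -1.64 to 0.197) and Vwf (-0.469 to 0.00406). They also include smaller moves of a count, such as 12 to 16 IAP names called higher. DESeq2 lost 10 calls and 1 fit of all ages 31.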

Other observations

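Several genes best known from the placenta, picked after their values were seen, rose from low levels. Prl7a2, of the placental prolactin family, held 0, 0.0812 and 0.0975 CPM in heterozygous and 1.25, 4.73 and 4.51 CPM in knockout libraries (log2 fold change 5.73, SE 0.93, edgeR adjusted p = 9.77e-04). Tpbpa, a marker gene of the spongiotrophoblast, held 0.283, 0.0812 and 0.38997 CPM against 5.16, 3.06 and 3.88 CPM (log2 fold change 3.97, SE 0.67, edgeR adjusted p = 0.00146). Its neighbour 4930486L24Rik held 2.83, 1.95 and 2.24 CPM against 24.98, 19.04 and 16.7 CPM (log2 fold change 3.10, SE 0.31, edgeR adjusted p = 3.26e-06). Cts3 and Cts7, cathepsin genes of the placenta, also rose, from 0.424, 0.325 and 2.14 CPM to 2.66, 6.12 and 8.29 CPM and from 0, 0.487 and 0.487 CPM to 2.66, 2.86 and 2.52 CPM. Prl7a2, Tpbpa and Cts7 lay under 1 CPM in every heterozygous library and could enter the test through their knockout counts alone. The group is thus a description only.

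Ifi203 and Mndal, adjoining interferon-inducible genes outside the interferon list, rose as well. Ifi203 held 4.52, 6.66 and 14.7 CPM against 50.5, 61.3 and 46.9 CPM (log2 fold change 2.64, SE 0.32, edgeR adjusted p = 2.02e-04), and Mndal held 2.19, 2.03 and 7.12 CPM against 19.4, 17.2 and 24.3 CPM (log2 fold change 2.45, SE 0.39, edgeR adjusted p = 8.95e-04). In both, heterozygous replicate 3 was the highest of its group and lay below every knockout library. Esr1, the estrogen receptor alpha gene, held 3.75, 10.1 and 7.99 CPM against 20.7, 25.7 and 22.4 CPM (log2 fold change 1.66, SE 0.30, edgeR adjusted p = 0.00292). Lair1, an inhibitory receptor gene of white blood cells, held 9.05, 8.85 and 6.53 CPM against 38.4, 28.5 and 26.7 CPM (log2 fold change 1.93, SE 0.24, edgeR adjusted p = 5.49e-05).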
